A study of Mus musculus with 6 samples.

Results

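A set of 7 abundant nuclear and structural noncoding RNAs were examined in the intestinal crypts of WT and Mtg16-/- mice. The RNAs were chosen by symbol: Rn45s, Rn7sk, Rmrp, Rpph1, Malat1, Neat1 and Kcnq1ot1. Of the 7 symbols, 6 were present among the 24736 genes of the deposited expression table, and Rn7sk was not in it. A mean of at least 1 TPM (transcripts per 1000000, the total of every library) over the libraries was reached by 12268 genes, among them 5 of the 6 present RNAs, and these were tested. Kcnq1ot1 lay below that limit and is described by its values.

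Crypts were isolated in cold EDTA from the whole length of the gut in 3 WT and 3 Mtg16-/- males at 12 weeks of age, and each mouse gave 1 library of ribosome-depleted total RNA. MTG16 is a transcriptional co-repressor encoded by Cbfa2t3, and the comparison asks how crypt expression differs without it. The labels call the knockout CRISPR induced, whereas the study's methods describe Mtg16-/- mice received from another laboratory, and neither treats the mice further. Cbfa2t3 itself stood at 4.96 ± 1.56 TPM in WT and 4.76 ± 1.6 TPM in the libraries labelled Mtg16-/- (SD, n = 3 each), so its RNA level does not separate the genotypes, which are given here as labelled. All 12 intestinal epithelium markers, such as Epcam and Vil1, were detected, with summed levels of 12311 to 13746 TPM in WT and 11812 to 13330 TPM in the libraries labelled Mtg16-/-. Of 12 stromal and muscle markers, Lum was the only one listed at 0 in every library, and Vim was the highest, at 9.29 to 13.9 TPM. TPM sets every library to one common total without keeping reads, which leaves the sequencing depth unknown.

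Most of the RNAs examined act as RNA rather than as templates for protein. Rn45s is the precursor that RNA polymerase I transcribes and from which the large ribosomal RNAs are cut. Rmrp and Rpph1 are short RNA polymerase III transcripts and form the RNA cores of a related pair of ribonucleoprotein enzymes, RNase MRP, which cuts ribosomal RNA precursors, and RNase P, which trims the 5′ ends of tRNA precursors. Rn7sk, also made by RNA polymerase III, holds the elongation kinase P-TEFb inactive. Malat1 and Neat1 are long RNA polymerase II transcripts retained in the nucleus, in nuclear speckles and paraspeckles respectively. Kcnq1ot1 is transcribed from the paternal chromosome within the Kcnq1 gene and silences imprinted neighbours on that chromosome. RNase P also links the short and the long RNAs, because it cuts Malat1 and Neat1 just upstream of a tRNA-like element, which leaves a 3′ end closed by a triple helix of U-rich motifs and an A-rich tract instead of a poly(A) tail.

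The genes lie at separate places in the genome, apart from Malat1 and Neat1. In the mouse build GRCm38.p6 (RefSeq), Malat1 spans chr19:5795690-5802672 and Neat1 chr19:5824708-5845480, with 22035 bases between them. Rmrp spans chr4:43492785-43493059, Rpph1 chr14:50807447-50807771 and Kcnq1ot1 chr7:143213111-143296547. Rn7sk, absent from the table, is annotated at chr9:78175302-78175633. All are annotated as noncoding genes, so the positions given are transcribed RNA and not UTRs. No position was used for Rn45s, whose repeats lie in ribosomal DNA arrays.

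The 3′ ends of Malat1 and Neat1 are shown because they are the part that the pair has in common and that RNase P makes. Both were read from GENCODE vM21 transcripts on GRCm38, minus strand, in DNA letters, with capitals for the runs of at least 9 bases that occur in both. The Malat1 stretch covers bases 6562 to 6749 of the Malat1 transcript (chr19:5795924-5796111) and includes the tRNA-like element at its end, and the Neat1 stretch covers the last 120 bases of the Neat1 transcript (chr19:5824708-5824827).
Malat1 3′ region: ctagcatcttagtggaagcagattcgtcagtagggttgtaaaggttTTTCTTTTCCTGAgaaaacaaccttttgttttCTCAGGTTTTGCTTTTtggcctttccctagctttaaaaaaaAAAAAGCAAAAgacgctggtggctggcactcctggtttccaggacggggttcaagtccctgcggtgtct
Neat1 3′ end: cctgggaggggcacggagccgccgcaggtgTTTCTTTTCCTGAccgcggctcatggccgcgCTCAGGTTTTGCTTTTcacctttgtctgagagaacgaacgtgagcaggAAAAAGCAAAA
The shared runs have 13, 16 and 11 bases, in that order. The first pair is T-rich (U-rich in the RNA), and the last run is A-rich. The tRNA-like element of Malat1 follows the A-rich run directly, covers bases 6692 to 6749 (chr19:5795924-5795981), and is annotated as a gene of its own, Mascrna.
Mascrna: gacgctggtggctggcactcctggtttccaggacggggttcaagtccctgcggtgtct
Mascrna is 58 bases long and was listed at 0 TPM in all 6 libraries, beside a Malat1 level of 697 to 2156 TPM. Its bases also belong to the Malat1 transcript, and whether so short an RNA can be counted in these libraries was not tested. The value of 0 is therefore not read as absence.

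The RNase MRP and RNase P RNAs are shown because they were the most abundant RNAs with a sequence at hand in every library. They were read from the same annotation (Rmrp, 271 bases, chr4:43492788-43493058, and the first 300 of the 319 bases of Rpph1, chr14:50807468-50807767, both on the minus strand), with capitals for letters in any stretch of at least 7 bases that also occurs in the other RNA.
Rmrp: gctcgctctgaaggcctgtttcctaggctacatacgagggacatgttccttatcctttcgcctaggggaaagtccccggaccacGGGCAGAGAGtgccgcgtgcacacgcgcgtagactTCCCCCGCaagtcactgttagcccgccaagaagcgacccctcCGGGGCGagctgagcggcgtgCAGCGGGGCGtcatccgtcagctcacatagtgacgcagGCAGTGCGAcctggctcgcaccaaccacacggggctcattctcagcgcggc
Rpph1: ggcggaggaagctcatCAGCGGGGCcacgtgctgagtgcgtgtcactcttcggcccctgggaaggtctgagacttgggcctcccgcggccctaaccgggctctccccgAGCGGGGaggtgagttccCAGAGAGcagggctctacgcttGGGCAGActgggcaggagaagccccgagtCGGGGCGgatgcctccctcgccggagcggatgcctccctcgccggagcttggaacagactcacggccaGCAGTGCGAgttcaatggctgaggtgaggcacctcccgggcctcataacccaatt
The stretch GCAGTGCGA, of 9 bases, stands in both. The capitals TCCCCCGC of Rmrp have no counterpart in the 300 bases of Rpph1 shown, which leave out its last bases. No count by chance was made for such short stretches, which are given as a description.

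Rn45s had the highest TPM of all genes in each of the 6 libraries. Its values were 43706, 68305 and 64017 TPM in WT 1, 2 and 3, and 41578, 62818 and 39719 TPM in the libraries labelled Mtg16-/- 1, 2 and 3. The lowest WT value lay below the second library labelled Mtg16-/-, so the groups overlapped. WT averaged 58676 ± 13140 TPM, and the average was 48038 ± 12833 TPM in those labelled Mtg16-/- (SD, n = 3 each). The log2 fold change, Mtg16-/- over WT on the log2(TPM + 1) scale, was -0.29 ± 0.44 (SE), with a 95% interval of -1.32 to 0.73 and an adjusted p of 0.772 by limma. Since ribosomal RNA was depleted before sequencing, the value counts what was left after depletion, and differences in depletion between libraries were not tested.

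Rmrp and Rpph1 took the next places. Rmrp stood at 17356, 23865 and 18129 TPM in WT and at 17311, 22219 and 26472 TPM in the libraries labelled Mtg16-/-. The highest value was that of Mtg16-/- 3, while the first library of each genotype gave nearly the same value. Its log2 fold change was 0.15 ± 0.34 (SE; 95% interval -0.63 to 0.93; limma adjusted p = 0.862). Rpph1 stood at 18523, 33463 and 34001 TPM in WT and at 27139, 38526 and 25237 TPM in the libraries labelled Mtg16-/-. WT 1 was lowest and Mtg16-/- 2 highest, with the other WT libraries between the values of the other genotype. The log2 fold change of Rpph1 was 0.11 ± 0.41 (SE; 95% interval -0.84 to 1.05; limma adjusted p = 0.918), and it was -0.18 without WT 1 and -0.08 without Mtg16-/- 2, so its sign rested on either library, and it was -0.17 after quantile normalization of all libraries. Rpph1 ranked above Rmrp in 5 libraries, and below it in Mtg16-/- 3.

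Malat1 and Neat1 had the lowest mean ratios of Mtg16-/- to WT among the tested RNAs. Malat1 stood at 2156, 1112 and 1074 TPM in WT and at 1061, 1279 and 697 TPM in the libraries labelled Mtg16-/-. WT 1 was highest and Mtg16-/- 3 lowest, and the other 4 libraries lay between 1061 and 1279 TPM. The fold change on the log2(TPM + 1) scale was -0.48 ± 0.33 (SE), which corresponds to a ratio of 0.717 with a 95% interval of 0.425 to 1.21, and the limma adjusted p was 0.506. Neat1 stood at 489, 278 and 254 TPM in WT and at 299, 280 and 150 TPM in the libraries labelled Mtg16-/-. The same pair of libraries stood apart, WT 1 above and Mtg16-/- 3 below 4 libraries between 254 and 299 TPM. The log2 fold change of Neat1 was -0.49 ± 0.33 (SE; 95% interval -1.24 to 0.27; limma adjusted p = 0.502). Without WT 1 the log2 fold changes were -0.15 for Malat1 and -0.19 for Neat1, and without Mtg16-/- 3 they were -0.23 and -0.17.

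Kcnq1ot1, the imprinting RNA, was near the bottom of the detected range. It stood at 0.19, 0.12 and 0.13 TPM in WT and at 0.11, 0.17 and 0.09 TPM in the libraries labelled Mtg16-/-, with overlapping groups. The means were 0.147 ± 0.0379 and 0.123 ± 0.0416 TPM (SD, n = 3 each; two-sided exact permutation p = 0.5, where 3 mice against 3 cannot go below 0.1). Values were deposited with 2 decimals, so single steps of rounding are a visible part of these differences. Over an annotated length of 83.4 kb, the values multiplied by the length in kb came to 7.51 to 15.9, compared with a mean of 8588 for Malat1 and 6057 for Neat1 on the same TPM × kb scale. An exon of Kcnq1 lies within Kcnq1ot1 on the opposite strand, at chr7:143261256-143261376, and the strand setting of the authors' counting is not given in the sources used here.

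**Figure D1:**
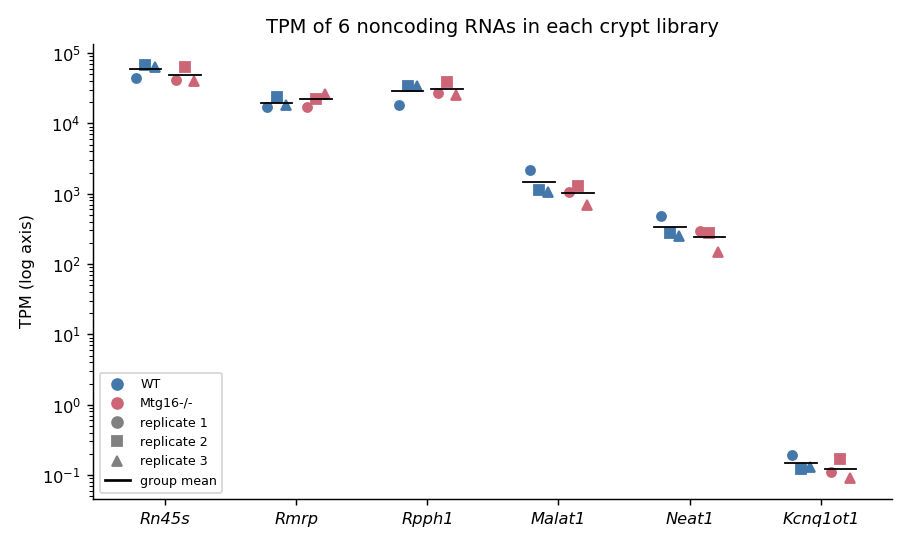
TPM of the 6 RNAs present in the table on a log axis, with WT libraries in blue, libraries labelled Mtg16-/- in red, a marker shape for each replicate number and a line at each group mean. The groups overlap for every RNA, and the levels span from 0.09 TPM for Kcnq1ot1 to 68305 TPM for Rn45s.

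In order of mean level, Rn45s (53357 TPM over the 6 libraries) was followed by Rpph1 (29481), Rmrp (20892), Malat1 (1230), Neat1 (292) and Kcnq1ot1 (0.135). Of the neighbours in this order, the values of Rpph1 and Rmrp overlapped across libraries. Every other pair of neighbours was separated, since the lowest Rn45s value exceeded the highest Rpph1 value and the lowest Malat1 value exceeded the highest Neat1 value. TPM is a level per transcript length, and for RNAs about as short as a sequenced fragment it also depends on the effective length that RSEM assigns, which was not tested. Multiplied by length in kb, as a measure of sequenced mass, the mean values were 9581 for Rpph1, 8588 for Malat1, 6057 for Neat1 and 5745 for Rmrp, so that on this scale the long nuclear RNAs stood among the short ones.

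The 6 RNAs together made up 8.22, 12.7 and 11.75% of all TPM in WT and 8.74, 12.5 and 9.23% in the libraries labelled Mtg16-/-. The share in WT (10.9 ± 2.36%) and in the libraries labelled Mtg16-/- (10.2 ± 2.05%) differed by -0.73 percentage points, with a two-sided exact permutation p of 0.9. The fourth most abundant gene was Apoa1 in WT 1 (9430 TPM), Eef1a1 in WT 3 (7543 TPM) and Defa24, a Paneth cell defensin, in the other libraries, all below the lowest of the Rn45s, Rpph1 and Rmrp values.

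No RNA of the group passed the test between genotypes. Across all 12268 tested genes, an adjusted p under 0.1 by limma was reached by 4, or 0.0326%, with 0.0163% in each direction. They were Cirbp and Ces1c, higher in Mtg16-/-, and Klhdc4 and Creld2, lower in Mtg16-/-. At an unadjusted p under 0.05, 14.6% of genes passed, among them none of the 5 RNAs. None of the 5 had groups without overlap, against 21.0% of tested genes (9.94% with the libraries labelled Mtg16-/- higher and 11.1% with them lower). As ratios, the intervals above ran from 0.425 to 1.21 for Malat1, 0.423 to 1.205 for Neat1 and 0.4 to 1.663 for Rn45s. They ran from 0.6445 to 1.901 for Rmrp and from 0.5599 to 2.075 for Rpph1. Changes within these ranges are not excluded. The intervals do not give the smallest change that the test would have called, which was not calculated. In bulk crypts, fewer cells that express an RNA and less of that RNA in each cell cannot be told apart.

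**Figure D2:**
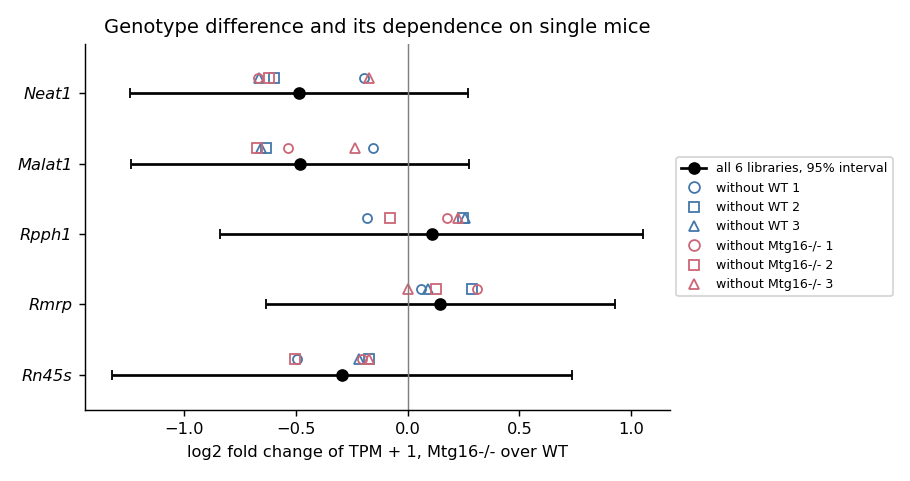
Log2 fold changes of log2(TPM + 1), Mtg16-/- over WT, for the 5 tested RNAs, as black points with 95% intervals, and above them the same value with each mouse left out. All 5 intervals cross 0, and the values of Malat1 and Neat1 are closest to 0 without WT 1 or without Mtg16-/- 3.

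The ratio of 2 RNAs within a library does not depend on how that library was scaled, and 4 such ratios were formed after the values had been seen. Malat1 over Neat1 was 4.41, 4.0 and 4.23 in WT and 3.55, 4.57 and 4.66 in the libraries labelled Mtg16-/-, so that Malat1 stayed between 3.55 and 4.66 times the TPM of Neat1 while each RNA varied about 3-fold across libraries. The log2 difference of this ratio between genotypes was 0.01 (two-sided exact permutation p = 1.0). The RNase P RNA Rpph1 over the RNase MRP RNA Rmrp was 1.07, 1.40 and 1.88 in WT and 1.57, 1.73 and 0.953 in the libraries labelled Mtg16-/-, with overlapping groups. Rn45s over Rmrp also overlapped, at 2.52, 2.86 and 3.53 in WT and 2.40, 2.83 and 1.5 in the libraries labelled Mtg16-/-. Rn45s over Rpph1 was 2.36, 2.04 and 1.88 in WT and 1.53, 1.63 and 1.57 in the libraries labelled Mtg16-/-, and these groups did not overlap. The log2 difference was -0.40, with a two-sided exact permutation p of 0.1, the smallest this design can give, and 0.4 after Benjamini-Hochberg adjustment over the 4 ratios. For comparison, the ratio to Rpph1 of any other tested gene separated the genotypes in 5.37% of cases. Ratios with Rn45s also carry any difference in ribosomal RNA depletion between libraries, which was not tested.

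**Figure D3:**
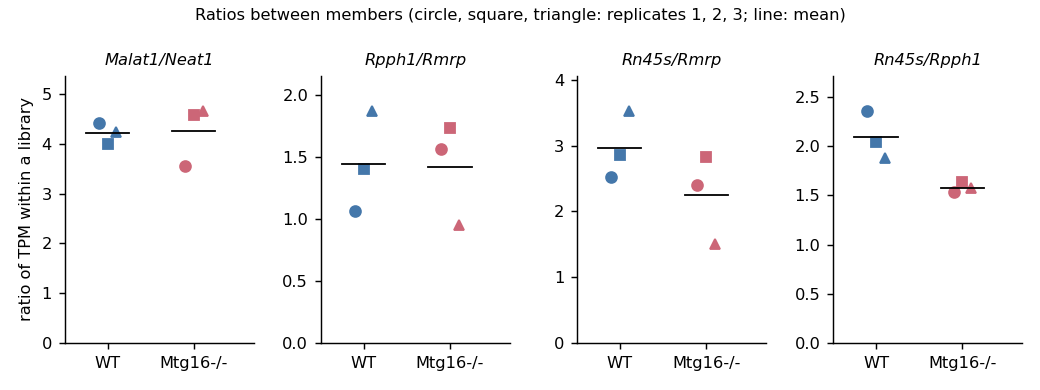
Ratios of TPM within each library for 4 pairs of RNAs, by genotype, with circles, squares and triangles for replicates 1, 2 and 3 and a line at the mean. Malat1 over Neat1 lies between 3.55 and 4.66 in every library, and Rn45s over Rpph1 lies between 1.88 and 2.36 in WT and between 1.53 and 1.63 in the libraries labelled Mtg16-/-.

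Malat1 and Neat1 followed the order of the libraries along the first principal component of all tested genes only at its ends, where WT 1 (-47.7) and Mtg16-/- 3 (36.3) lie. Other quantities moved across the same libraries. The summed TPM of 12 enterocyte markers, such as the apolipoprotein gene Apoa1 and the fatty acid binding gene Fabp2, was 39928, 13459 and 16865 in WT and 12998, 7049 and 6641 in the libraries labelled Mtg16-/-. All 12 had lower means in the libraries labelled Mtg16-/-, with a median log2 fold change of -1.23, and none was called. Groups did not overlap for 5 (41.7%), against 21.0% of all tested genes in either direction and 11.1% in that direction. The summed TPM of a list of 12 immune markers was 147, 111 and 100 in WT and 132, 86.7 and 77.6 in the libraries labelled Mtg16-/-. One of the 12 was Hba-a1, a globin gene of red cells rather than an immune marker. Hba-a1 stood at 0, 25.1 and 12.75 TPM in WT and at 6.78, 11.7 and 19.2 TPM in the libraries labelled Mtg16-/-. Of the 11 listed genes tested, 9 had a log2 fold change below 0, with a median of -0.34, while Hba-a1 had 0.83. The immune markers did not follow one course. Jchain, a plasma cell gene, was the only one without overlap, at 7.56, 14.75 and 5.84 TPM in WT and 35.5, 17.5 and 16.5 TPM in the libraries labelled Mtg16-/- (log2 fold change 1.23; limma adjusted p = 0.267), the B cell gene Cd79a was highest in Mtg16-/- 1 and the macrophage gene Csf1r in Mtg16-/- 3. The pan-leukocyte gene Ptprc stood at 17.1, 6.16 and 8.72 TPM in WT and at 8.88, 6.66 and 4.91 TPM in the libraries labelled Mtg16-/-, and the T cell receptor component Cd3g at 43.3, 13.1 and 26.1 and at 19.2, 14.4 and 8.16 TPM. WT 1 was highest and Mtg16-/- 3 lowest for both, and for the T cell genes Cd3e and Cd8a, as for Malat1 and Neat1. The summed TPM of 9 Paneth cell markers took the other direction. It was 15128, 25243 and 16128 in WT against 35910, 27773 and 29020 in Mtg16-/- 1, 2 and 3. Of the 9, 8 had a log2 fold change above 0 and none was called. Groups did not overlap for 6 (66.7%), against 21.0% of all tested genes. Mmp7 and Pla2g2a, each at 0.12, and Reg3g, at -0.41, had overlapping groups. The 12 stromal and muscle markers summed to 13.3 to 19.9 TPM in WT and 15.6 to 22.7 TPM in the other genotype. The part of these cell types in the Malat1 and Neat1 values was not tested.

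Transcript length moved with the libraries as well, in bins chosen after the values had been seen. Of the tested genes, 98.7% had a known length. The 1582 genes with transcripts of at least 6000 bases had median log2 deviations from their mean of 0.08, -0.06 and 0.07 in WT 1, 2 and 3, and of -0.0003, 0.13 and -0.24 in Mtg16-/- 1, 2 and 3. The 801 genes under 1000 bases stood at -0.15, 0.00 and -0.01 and at -0.03, 0.01 and 0.15. Mtg16-/- 3 was thus lowest for long transcripts and highest for short ones. Malat1 and Neat1, both above 6000 bases, deviated by -0.73 and -0.87 there, the short Rmrp by 0.36 and the short Rpph1 by -0.18, which is opposite in sign to the median of the short genes. In WT 1, where long genes stood at 0.08, Malat1 and Neat1 deviated by 0.89 and 0.83, and the short Rmrp and Rpph1 by -0.25 and -0.63. The part of transcript length in these values was not tested.

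**Figure D4:**
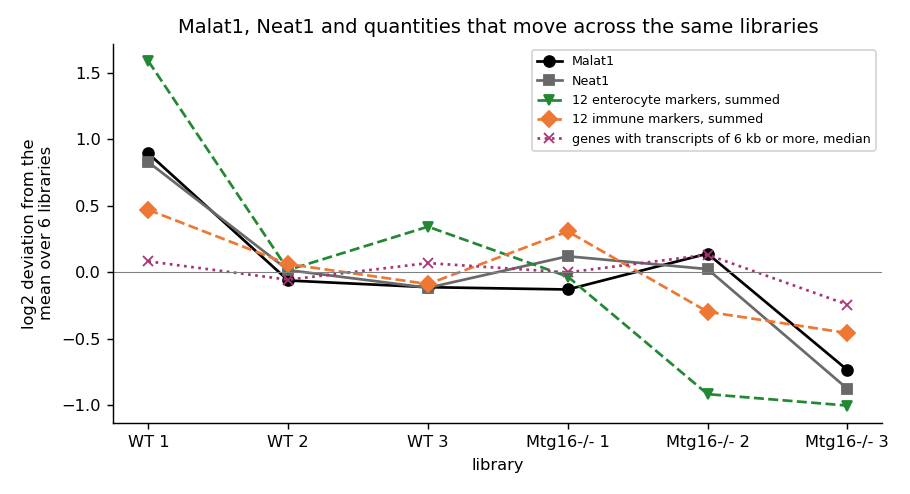
Log2 deviations from the mean over the 6 libraries of Malat1, Neat1, the summed TPM of 12 enterocyte and 12 immune markers, and the median gene with transcripts of 6000 bases or more, by library. The 12 immune markers include the globin gene Hba-a1. Malat1 and Neat1 deviate by 0.89 and 0.83 in WT 1 and by -0.73 and -0.87 in Mtg16-/- 3, the libraries in which the enterocyte and immune sums are highest and lowest.

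For each RNA, the 3 tested genes with the most similar course over the 6 libraries were named, by the root mean square difference of centred log2(TPM + 1) values and among genes that varied at least 50% as much. For Malat1 these were Gimap7 (0.0880), a GTPase gene of lymphocytes, Apbb1ip (0.0892), an adaptor in integrin signalling of blood cells, and the interferon-induced Ifi203 (0.112). Neat1 was the 7th most similar to Malat1 of 5023 candidates, with a difference of 0.133. For Neat1 the nearest genes were the lymphocyte receptor gene Cd27 (0.0571), Gtpbp2 (0.0873), which encodes a GTP-binding protein that rescues stalled ribosomes, and the lysosomal cholesterol transporter gene Npc1 (0.0931), with Malat1 in the 36th place of 4734. Cd27 lay at only 0.13 to 2.55 TPM, where the 1 added before the logarithm narrows its differences between libraries. Gimap7, for instance, stood at 9.09, 3.91 and 3.88 TPM in WT and at 4.10, 4.85 and 1.77 TPM in the libraries labelled Mtg16-/-.

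The short RNAs and Rn45s had other neighbours in this measure. The genes nearest to Rn45s were Cad (0.0461), which encodes the enzyme that opens pyrimidine synthesis, Pitpnm2 (0.0535) and 2900060B14Rik (0.0716). Those nearest to Rmrp were the histone chaperone gene Asf1b (0.0531), the kinase gene Vrk2 (0.0632) and Bok (0.0648), a BCL2 family member. Rpph1 was nearest to D930020B18Rik (0.0744), Syne4 (0.0786), which encodes a nesprin of the outer nuclear membrane, and Pkn3 (0.0865). D930020B18Rik lay at 0.38 to 1.79 TPM, where the added 1 has the same effect as for Cd27. All these values are descriptions over 6 libraries, without a test.

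Proteins that act with these RNAs were read from lists of related genes, none of which held a called member. Of the 13 genes of the P-TEFb and 7SK particle list, all tested, the median log2 fold change was -0.11, against -0.03 over all tested genes, and 1 (7.69%) had groups without overlap, against 21.0% of all tested genes. That gene was Ell3, an elongation factor, at 3.86, 3.07 and 4.02 TPM in WT and 5.83, 9.44 and 7.92 TPM in the libraries labelled Mtg16-/- (log2 fold change 0.89; limma adjusted p = 0.225). The 7SK-bound inhibitor Hexim1 and the P-TEFb cyclins Ccnt1 and Ccnt2 had log2 fold changes of -0.16, -0.21 and -0.22, with overlapping groups. Larp7, Cdk9, Hexim2 and Mepce had 0.17, 0.11, 0.07 and -0.005, also with overlapping groups. Of the 13 genes, 4 had a value above 0 and 9 below. The Rn7sk RNA that these proteins bind was not measured here.

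The protein subunits of RNase MRP and RNase P, 11 genes, had a median log2 fold change of 0.17, with 2 (18.2%, against 21.0% of all tested genes) not overlapping. Pop5, shared by both enzymes, stood at 36.8, 45.7 and 51.2 TPM in WT and at 24.9, 26.9 and 35.8 TPM in the libraries labelled Mtg16-/- (log2 fold change -0.60; limma adjusted p = 0.266). Rpp40 stood at 1.92, 3.6 and 3.19 and at 3.79, 4.35 and 5.68 TPM (0.54; limma adjusted p = 0.346), and Rpp38 had a log2 fold change of 0.48 with overlapping groups. The subunits thus had values on either side of 0 beside their RNAs at 0.15 and 0.11.

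The RNA polymerase I machinery, which transcribes Rn45s, had a median log2 fold change of 0.06 over 15 genes, with 3 (20.0%) not overlapping. The polymerase I subunit gene Twistnb stood at 11.1, 11.0 and 14.1 TPM in WT and at 14.5, 17.9 and 18.7 TPM in the libraries labelled Mtg16-/- (log2 fold change 0.47; limma adjusted p = 0.286). Polr1c, a subunit that polymerases I and III share, had 0.41, and the promoter selectivity factor subunit Taf1c -0.25. The RNA polymerase III machinery also had a median of 0.06, over 29 genes, with 7 (24.1%) not overlapping. Its members with the smallest p were Zfp143 (-0.33), an activator of small nuclear RNA genes, and the TFIIIC subunits Gtf3c1 (-0.46) and Gtf3c3 (0.32), all as log2 fold changes. These shares of groups without overlap stand near the 21.0% of all tested genes.

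Paraspeckle proteins, which assemble on Neat1, had a median log2 fold change of 0.02 over 16 genes, and 4 (25%) did not overlap, near the 21.0% of all tested genes. Of these 4, 3 were higher and 1 was lower in the libraries labelled Mtg16-/-. Nudt21, which with Cpsf6 forms a cleavage factor that acts on Neat1 isoforms, had 0.44, and Hnrnpk 0.24, both without overlap. The core paraspeckle proteins Sfpq, Nono and Pspc1 had log2 fold changes of 0.08, 0.24 and -0.01, with overlapping groups. Nuclear speckle and Malat1 processing genes had a median of -0.06 over 16 genes, and 1 (6.25%, against the same 21.0%) did not overlap, the splicing-associated gene Pnn (-0.25; limma adjusted p = 0.387). The speckle scaffold genes Srrm2 and Son had -0.33 and -0.27, and both had their lowest value in Mtg16-/- 3, at 133 and 69.0 TPM. Srsf1, Srsf2, Srsf3 and Srsf7 had their highest value in that library, at 148, 333, 230 and 116 TPM. Their log2 fold changes were 0.12, 0.07, 0.15 and 0.14. Of the 16 genes, 7 had a value above 0 and 9 below.

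The list around the imprinted Kcnq1 domain, in which Kcnq1ot1 acts, reached from H19 and Igf2, of a separate imprinted domain, to Dhcr7. It held 18 genes, not all of the Kcnq1 domain, of which 13 were tested. Their median log2 fold change was -0.13, and 3 (23.1%) did not overlap, near the 21.0% of all tested genes. Cars, a cysteinyl-tRNA synthetase gene, stood at 33.5, 37.6 and 37.1 TPM in WT and at 20.5, 19.7 and 21.5 TPM in the libraries labelled Mtg16-/- (log2 fold change -0.78 ± 0.12 SE), with a limma adjusted p of 0.104 just outside the limit. Kcnq1, the potassium channel gene that contains Kcnq1ot1, stood at 73.1, 105 and 117 TPM in WT and at 132, 160 and 131 TPM in the libraries labelled Mtg16-/- (log2 fold change 0.53; limma adjusted p = 0.296). The cholesterol synthesis gene Dhcr7 had -0.36. The imprinted growth genes Cdkn1c and Phlda2 had -0.24 and -0.15, and the stem cell factor gene Ascl2 had 0.32 (limma adjusted p = 0.501), all 3 with overlapping groups. Slc22a18, of the same list, had -0.50 (limma adjusted p = 0.367), also with overlapping groups. Of the 13 tested genes, 4 had a value above 0 and 9 below. No value here separates the parental alleles.

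Other structural and long noncoding RNAs were compared as context. Of 24 other small structural RNAs listed, 9 were in the table and 5 were tested, with a median log2 fold change of 0.08 and no gene without overlap. Rn4.5s lay between 2554 and 4636 TPM over the 6 libraries, and the spliceosomal Rnu11 and Rnu12 had log2 fold changes of 0.63 and 0.66 with overlapping groups. The telomerase RNA Terc had -0.13, and Rnu7, Rnu6, Rnu73b and Bc1 were listed at 0 in every library. Whether short RNAs of this kind can be counted in these libraries was not tested, so these values are not read as absence. Among other long noncoding RNAs, 16 were tested, with a median of 0.12, and 2 (12.5%, against 21.0% of all tested genes) did not overlap. These were the snoRNA host genes Zfas1, at 37.6, 64.8 and 57.8 TPM in WT and 81.4, 122 and 94.1 TPM in the libraries labelled Mtg16-/- (log2 fold change 0.90; limma adjusted p = 0.251), and Snhg8 (0.54). The snoRNA host gene Snhg1 had 0.30 with overlapping groups.

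**Figure D5:**
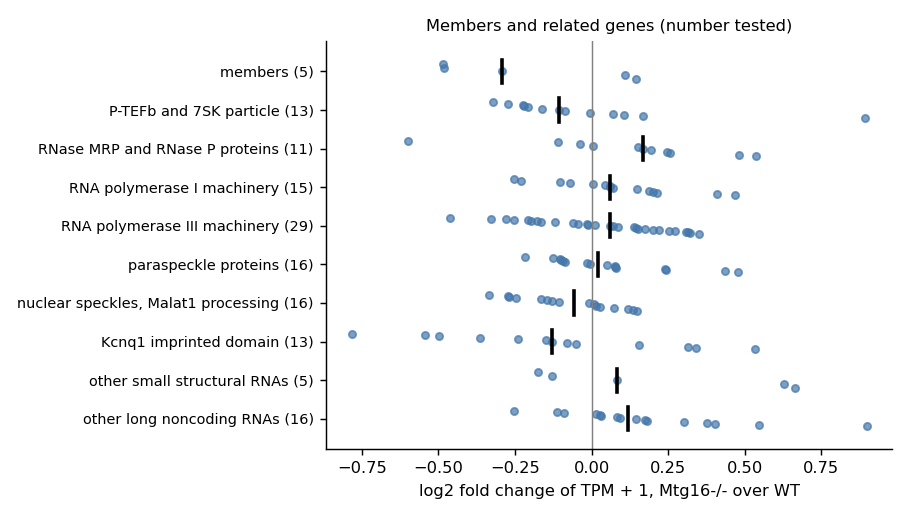
Log2 fold changes of log2(TPM + 1), Mtg16-/- over WT, for each tested member of the group and of the related lists, with the number tested in brackets and a black line at the median. The medians lie between -0.29 for the noncoding RNAs and 0.17 for the RNase MRP and RNase P proteins, and no point passed the test.

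The genes around Malat1 and Neat1 were described because the pair shares one locus. Within 250 kb of either gene, 38 genes are annotated, 32 were in the table and 26 were tested. Their median log2 fold change was -0.18, against -0.03 over all tested genes. Of the 26, 20 had a value below 0, as had 6581 of all 12268 tested genes. Groups did not overlap for 8 (30.8%), against 21.0% of all tested genes in either direction, and none was called. Each of the 8 had the libraries labelled Mtg16-/- lower, a direction seen in 11.1% of all tested genes and picked out after the values had been seen. The mitochondrial carrier gene Slc25a45 had the lowest value, at 135, 50.5 and 75.7 TPM in WT and 39.0, 22.3 and 30.6 TPM in the libraries labelled Mtg16-/- (log2 fold change -1.39; limma adjusted p = 0.247). Syvn1, a ubiquitin ligase gene of the endoplasmic reticulum, stood at 66.8, 57.3 and 59.4 and at 42.2, 37.8 and 27.0 TPM (-0.78; limma adjusted p = 0.225). Ap5b1, Ovol1, Pcnx3, Tigd3 and Cdc42ep2 were also among the 8, with log2 fold changes from -0.82 for Cdc42ep2 to -0.26 for Pcnx3. Frmd8, which lies next to Neat1, had -0.34 with overlapping groups, and the highest value in the window was 0.17, for the cohesin regulator gene Cdca5.

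The genes next to the short RNAs were nearly level between genotypes, and were picked as nearest neighbours after the values had been seen. Parp2, which starts 125 bases from Rpph1, stood between 36.5 and 45.7 TPM over the 6 libraries (log2 fold change -0.06; limma adjusted p = 0.859). Ccdc107, 280 bases from Rmrp, stood between 55.6 and 62.5 TPM (0.08; limma adjusted p = 0.744). 
A promoter window of 250 bases before to 50 bases after the start was held by the RefSeq table for Malat1 and Kcnq1ot1. The Malat1 window is shown because it carries the only match among the motifs searched, and lies at chr19:5802623-5802922 on the minus strand of GRCm38.p6, with the match in capitals.
Malat1 promoter: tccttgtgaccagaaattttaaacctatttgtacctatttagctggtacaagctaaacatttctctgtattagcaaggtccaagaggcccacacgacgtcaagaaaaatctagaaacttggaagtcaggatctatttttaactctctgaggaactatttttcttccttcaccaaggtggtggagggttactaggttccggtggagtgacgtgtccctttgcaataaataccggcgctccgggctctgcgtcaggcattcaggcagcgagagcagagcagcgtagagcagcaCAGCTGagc
The match was the E-box CAGCTG, which reads the same on both strands and occurs in 16.3% of 32851 promoter windows of the same length. It lies in the 50 bases after the start, within the transcribed Malat1 RNA and not before it. E-boxes of this kind are bound by basic helix-loop-helix factors, the family of ATOH1 and of the E proteins with which MTG proteins interact. The other motifs searched on both strands were TATAA (24.9% of windows), ATTTGCAT (1.74%) and GGGCGG (35.7%), and these letters were not in the Malat1 window. The Kcnq1ot1 window held none of the 4. A match of letters is a description and not a bound site.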

How the data were processed

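RNA sequencing measured gene expression in crypts of 3 WT and 3 Mtg16-/- mice, and samples were grouped by their labels. Libraries were made from ribosome-depleted total RNA. The submitters' processing notes name cutadapt 1.9.1, STAR 2.5.2a, RSEM 1.3.0, DESeq2 1.12.3 and mm10. The authors deposited RSEM TPM values by gene symbol, rounded to 2 decimals. Depth is unknown, so no counting interval was possible.

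Values were transformed as log2(TPM + 1), and 12268 genes whose TPM averaged 1 or more were tested with limma's moderated test and intensity trend (limma 3.58.1, R 4.3.3), without covariates, with Benjamini-Hochberg adjustment at 0.1. The calculation was tested on simulated data. Ratios, shares and Kcnq1ot1 were compared by two-sided exact permutation tests. Named genes were the members, the 3 genes of smallest p in each list, the 3 nearest in pattern, and genes within 250 kb of Malat1 or Neat1. A few further list members were named for their known roles. The members, lists and tests were chosen with earlier results of these data known. Alternatives were other pseudocounts, filters, scalings, no trend, an adjusted p under 0.05, a replicate block and each mouse left out. Positions and promoter windows came from RefSeq (GRCm38.p6), transcripts from GENCODE vM21. Replicates are separate mice. Results of some genes in the lists are not reported here.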

Additional observations from a re-analysis of the deposited data

How the results depend on the processing

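The members kept their direction under the alternatives run, apart from Rpph1 and Rn45s, and no member was called under any of them, with limma adjusted p ranging from 0.583 to 1.0 for Rn45s, 0.742 to 1.00 for Rmrp, 0.750 to 0.974 for Rpph1, 0.242 to 0.843 for Malat1 and 0.131 to 0.869 for Neat1. The log2 fold change of Rpph1 was -0.17 after quantile normalization and ranged from -0.18 to 0.26 with each mouse left out. That of Rn45s was 0.00 after quantile normalization, which gives the top gene of every library the same value. Leaving out single mice gave -0.50 to -0.17 for Rn45s, 0.00 to 0.31 for Rmrp, -0.67 to -0.15 for Malat1, -0.67 to -0.17 for Neat1, -0.55 to -0.02 for the log2 ratio of Kcnq1ot1 and -2.07 to 0.17 percentage points for the members' share of TPM, which was positive only without WT 2.

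The 4 called genes became 0 without a filter on low values (2187 genes at an unadjusted p under 0.05), 15 at a mean TPM of at least 5, 0 with median-ratio rescaling (1818), 1 with quantile normalization, 9 after removing the members, 0 after removing Rn45s (1826), 0 after removing the Defa genes (1806), 0 without the trend (1754) and 0 at an adjusted p under 0.05 (1789). With each mouse left out the count ranged from 0 without Mtg16-/- 3 (1062) to 20 without WT 1. Causes of these changes were not tested. Among the related lists, the only gene called at a mean TPM of at least 5 was Cars (1 gene, adjusted p 0.0998, and 0.0181 to 0.571 over its alternatives).

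With the replicate number as a block, 1201 genes (9.79%) were called, 10 of them in related lists (among them Cars, Ell3, Kcnq1, Nudt21, Polr1c, Pop5, Slc22a18, Snhg8 and Zfas1), and no member. The labels do not pair the mice, so the numbers were not taken as pairs in the main fit. The deviations of same-numbered libraries correlated at 0.0753 to 0.429, with 2 of 3 pairs over 0.1. Those of differently numbered libraries correlated at -0.331 to 0.198. Whether the mice were paired was not tested. With 3 libraries a group, replication and unknown depth limit what could be detected.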
